A study of Gallus gallus with 20 samples.

Results

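The genes described here carry the insulin, mTOR and AMPK signals by which cells read their energy supply. They were taken from a list of 43 symbols, matched by name without regard to case to the gene names of the deposited count table, and 38 of the 43 were found among its 28021 genes. ACACB, CAMKK2, DEPTOR, IRS2 and TSC1 were not matched by name and are not analysed here. The row named IRS1 is described in the table as an uncharacterized locus, and the row named SESN2 as a sestrin-like gene, so the identity of both rests on the symbol alone. Of the 38 genes, 37 passed the filter on low counts in the hypothalamus and all 38 passed it in the pituitary. PRKAG3 is the gene that did not pass in the hypothalamus.

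Insulin binds its receptor, which acts through insulin receptor substrates, the lipid kinase PI3K and the kinase AKT to restrain FOXO transcription factors and the TSC complex. Release of the small GTPase RHEB from TSC switches on the kinase complex mTORC1, which promotes translation, while AMPK, an enzyme of alpha, beta and gamma subunits that is activated when ATP is scarce, opposes mTORC1 and favours fat oxidation. In the hypothalamus of mammals these pathways are known for their part in the control of feeding, and the roles given below are mainly known from mammals.

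The birds were male Korat chickens (KRC), a slow-growing Thai line, kept singly and sampled when 10 weeks old. Their residual feed intake (RFI), the difference between feed eaten and feed predicted from weight and growth, is low in birds that eat less than predicted. From 200 males the birds of lowest and of highest RFI formed the groups, and RNA from both organs was pooled across birds before sequencing. The study asked which genes of these organs differ between birds of divergent RFI. The titles give 5 libraries for each of the 4 groups: hypothalamus of low RFI birds, hypothalamus of high RFI birds, pituitary of low RFI birds and pituitary of high RFI birds. All birds shared line, sex, age and a commercial feed given without limit, and the labels name no engineered allele and no drug. For the hypothalamus 10 birds per group in 5 pools are stated. For the pituitary 8 birds per group in 4 pools of birds with neighbouring RFI ranks are stated, against 5 titled libraries per group, and the 5 were used as labelled. Each library being a pool of birds, p-values measure the spread between pooled samples, and no label says whether libraries of different organs came from the same birds.

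Library totals were 11418600 to 12647034 counts in the hypothalamus and 10262777 to 11960994 counts in the pituitary. The organ labels were checked against marker genes: hormone and lineage genes of pituitary endocrine cells summed to 32923 to 138107 CPM (counts scaled to a common library size) in the pituitary and to 324 to 674 CPM in the hypothalamus. Low RFI library 1 of the pituitary held 4504 CPM of neuron markers (11 of 13 listed found) and 25110.4 CPM of oligodendrocyte markers (9 of 13 found), and high RFI library 4 held 2389 and 3819.6 CPM. Low RFI library 2 of the hypothalamus held 27945 CPM of pineal and choroid plexus markers, against 136 to 479.9 CPM in the other hypothalamus libraries. These 3 libraries are called the libraries that stood apart, and results were also computed without them. Low RFI library 2 of the pituitary (2655 CPM of neuron markers) and high RFI library 1 (12147 CPM of oligodendrocyte markers) were left out only singly.

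Per annotated gene length, the most abundant energy-sensing messages were those next to mTORC1. The authors' FPKM scale divides counts by gene length and library size, so levels of different genes can be compared as far as the annotated lengths hold. On it RHEB stood highest in the hypothalamus at 132 ± 12.7 FPKM (SD, n = 10) and came after DDIT4 in the pituitary at 103 ± 18.9 FPKM. DDIT4, a stress-induced brake on mTORC1, stood at 63.2 ± 11.3 FPKM in the hypothalamus and 127 ± 43.6 FPKM in the pituitary. EIF4E, the cap-binding translation factor, followed at 61.7 ± 5.03 FPKM and 53.9 ± 5.22 FPKM, close to EIF4EBP1, the binding protein that holds EIF4E back, at 49.1 ± 7.26 FPKM and 69.9 ± 17.1 FPKM. The ranges of DDIT4, EIF4E and EIF4EBP1 overlapped within the hypothalamus, so their order there is not set beyond the spread. In the pituitary the range of DDIT4 (67.0 to 216 FPKM) overlapped that of RHEB (87.7 to 146 FPKM). EIF4EBP1 (39.2 to 96.1 FPKM) overlapped EIF4E (46.7 to 62.2 FPKM) there, so the order within each pair is not set either. These places depend on the annotated lengths, which were 639 bases for DDIT4, 1150 for EIF4EBP1 and 1207 for RHEB, against 6609 for PDPK1. Without division by length, the hypothalamus held 29.9 to 52.1 CPM of DDIT4 and 160.0 to 199 CPM of PDPK1. The scarcest messages were PRKAG3 at 0.198 ± 0.147 FPKM and 1.08 ± 0.437 FPKM and PRKAA2 at 1.35 ± 0.416 FPKM and 0.985 ± 0.331 FPKM.

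Within several of the gene families a single gene supplied most of the message, while others were more even. PRKAA1, a catalytic alpha subunit of AMPK, made up 92.9% ± 2.15 (SD, n = 10) of the hypothalamus FPKM of PRKAA1 and PRKAA2 together, and 92.9% ± 2.47 of that in the pituitary. The regulatory beta subunits were more even, with PRKAB1 at 51.9% ± 4.07 in the hypothalamus and 57.9% ± 4.17 in the pituitary. PRKAG1 supplied 60.7% ± 3.23 and 66.8% ± 5.72 of the nucleotide-binding gamma subunits, PRKAG2 38.7% ± 3.01 and 30.5% ± 5.98, and PRKAG3 0.56% ± 0.38 and 2.70% ± 0.97. Among the insulin receptor substrates that were found, IRS4 held 84.4% ± 2.93 and 83.6% ± 2.07. Of the sestrins, stress-responsive inhibitors of mTORC1, SESN1 held 83.6% ± 3.38 and 85.5% ± 3.77. The pair of AKT kinases differed more between organs, since AKT1 held 65.9% ± 3.55 of the pair in the hypothalamus and 50.9% ± 4.996 in the pituitary, with ranges of 61.0 to 71.3% and 45.8 to 62.3%. These shares are descriptions, without a test, and cover only the listed members that were found.

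**Figure D1:**
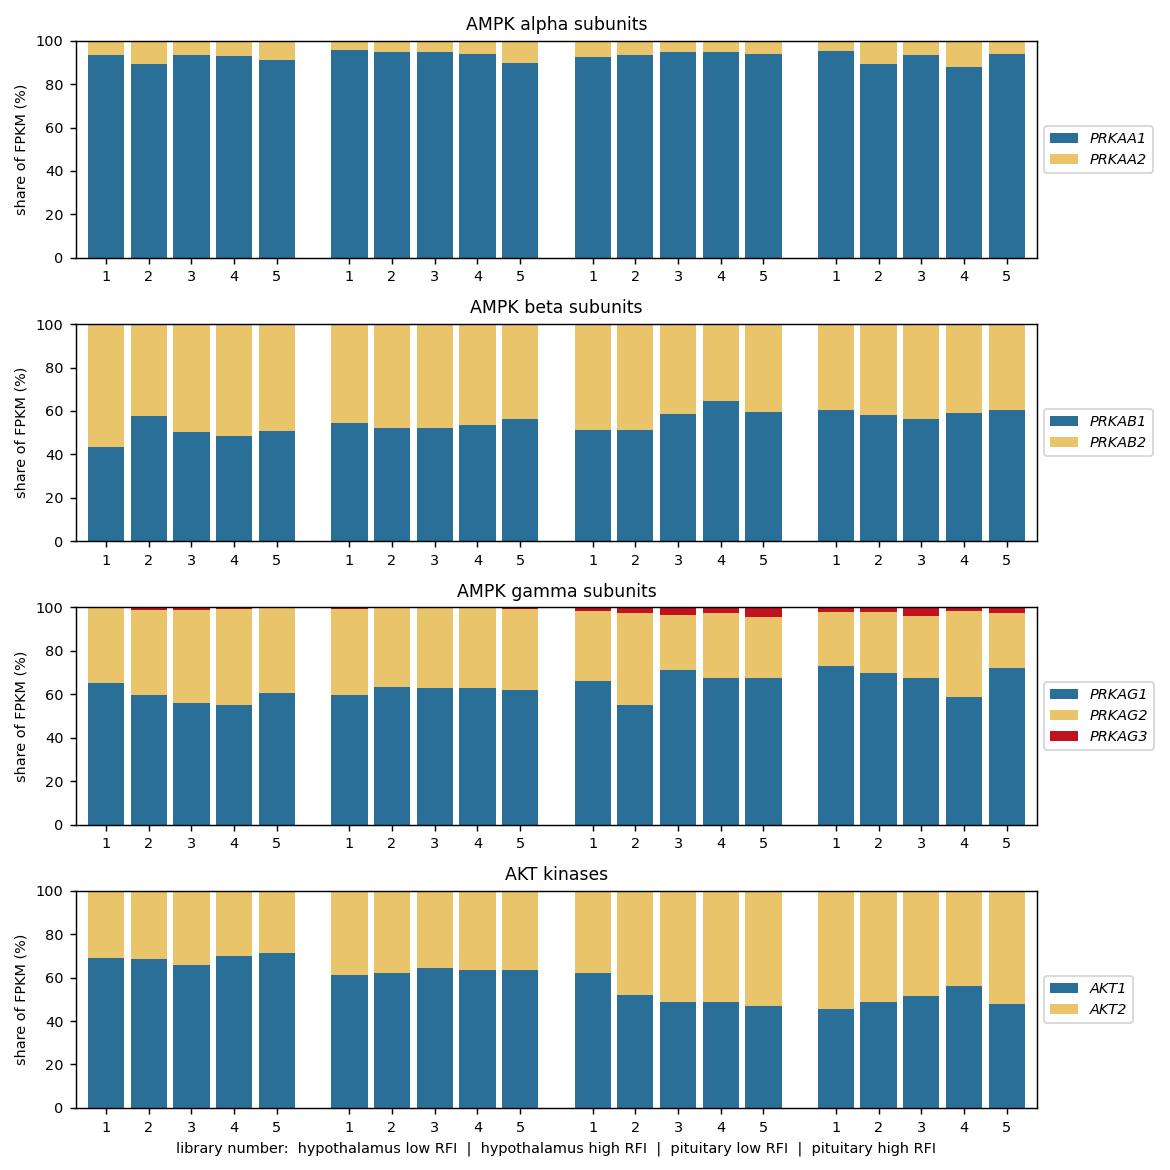
Shares of the summed FPKM (vertical axes, %) that each subunit or isoform of the AMPK alpha, beta and gamma subunits and of the AKT1 and AKT2 pair held in each of the 20 libraries, 5 per group along the horizontal axis. PRKAA1 held most of the alpha subunit message in all 20 libraries, and the AKT1 share was 61.0 to 71.3% in the 10 hypothalamus libraries and between 45.8 and 62.3% in the pituitary.

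In the hypothalamus, no energy-sensing gene passed the test between low and high RFI birds. Counts were tested with edgeR's quasi-likelihood test with Benjamini-Hochberg adjustment over all genes tested, called edgeR below, and a gene was called at an adjusted p under 0.05. Of 37 genes tested 0 were called, against 0% of the 15179 genes tested. At an unadjusted p under 0.05 there were 3 of the 37 (AKT2, EIF4E and FOXO1), against 4.8% of all genes (2.02% higher and 2.78% lower in low RFI). The groups did not overlap for 2 members, AKT2 and EIF4E, against 0.856% of all genes. The log2 fold, low minus high RFI, was above 0 for 21 and below 0 for 16, with a median of 0.02 beside 0.01 for all genes. DESeq2 and limma-voom called 0 of the 37 too, while over all genes DESeq2 called 5 with 812 at an unadjusted p under 0.05, and limma-voom called 0 with 684. Without low RFI library 2, which stood apart, edgeR called 0 of 37. There were then 4 at an unadjusted p under 0.05, beside 601 of 15343 genes. The libraries bound what could have been missed: for 31 of 37 the 95% interval of the fold lay within 1.5-fold in either direction, as it did for 61.2% of all genes.

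AKT2, a kinase of the insulin signal that in mammals serves glucose uptake, had the smallest p of the list in the hypothalamus (chromosome 32, 325338 to 338767, plus strand of GRCg6a). The 5 low RFI libraries held 38.4, 33.1, 42.1, 38.6 and 35.3 CPM, with the lowest in library 2, which stood apart. The 5 high RFI libraries held 43.3, 47.9, 45.6, 46.5 and 44.6 CPM. The highest low RFI library was thus under the lowest high RFI library, with means of 37.5 ± 3.43 CPM and 45.6 ± 1.76 CPM (SD, n = 5). Groups lay apart in this direction for 0.567% of all genes. The log2 fold was -0.28 (SE 0.08), an unadjusted p of 0.00480 that did not pass after adjustment (edgeR, adjusted p = 0.964; DESeq2, adjusted p = 0.397). On chromosome 32, which holds AKT2, 58 of 73 tested genes had a log2 fold below 0 in the hypothalamus, with a median of -0.17. In the pituitary the median was -0.007 over 80 genes of that chromosome. The hypothalamus shift was not particular to chromosome 32. On chromosomes 30, 31, 32 and 33 together 424 of 534 genes were below 0, with a median of -0.15. On chromosomes 1 to 5 and Z 2992 of 7193 were below 0, with a median of 0.03. The part of this shift in the AKT2 value was not tested. AKT1 had a log2 fold of 0.10, and its share of the AKT1 and AKT2 pair was 65.8 to 71.3% in low RFI libraries and 61.0 to 64.5% in high RFI libraries. That share is computed from the same AKT2 counts, so it is not a separate observation.

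EIF4E, which binds the cap of messenger RNA to start translation, was the gene of the list that lay apart in the other direction (chromosome 4, 59888200 to 59909081, minus strand). Low RFI libraries held 118, 119, 124, 124 and 123 CPM. High RFI libraries held 102, 105, 109.9, 108 and 101 CPM. Every low RFI library was above every high RFI library, which held for 0.29% of all genes, and the means were 121 ± 2.69 CPM and 105 ± 3.599 CPM (SD, n = 5). EIF4E also varied least of the members among the libraries of a group in 3 of the 4 groups, with a coefficient of variation of 2.21% in the low and 3.42% in the high RFI hypothalamus. The log2 fold was 0.21 (SE 0.06), with an unadjusted p of 0.00567, and it did not pass (edgeR, adjusted p = 0.964; DESeq2, adjusted p = 0.171). EIF4EBP1, its inhibitor, had a log2 fold of 0.02 (SE 0.13).

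FOXO1, a transcription factor that insulin keeps out of the nucleus, held 20.8, 18.8, 23.5, 21.2 and 15.8 CPM in the low RFI libraries (chromosome 1, 171900251 to 171963536, plus strand). The high RFI libraries held 26.5, 26.9, 24.9, 24.8 and 23.3 CPM. The groups overlapped by a narrow margin, since the highest low RFI library passed the lowest high RFI library, and the log2 fold was -0.34 (SE 0.11) with an unadjusted p of 0.00960 (edgeR, adjusted p = 0.964). FOXO3, its relative, had a log2 fold of 0.0005 (SE 0.16). PDPK1, the kinase that activates AKT, held 187, 169.9, 173, 183 and 199 CPM in the low RFI libraries. The high RFI libraries held 176, 160.0, 177, 160.5 and 165 CPM of PDPK1, overlapping groups with a log2 fold of 0.12 (SE 0.07) (edgeR, adjusted p = 0.964). CPT1A, which admits fatty acids to mitochondria and is held back by an AMPK target, held 50.4, 36.3, 35.4, 35.9 and 49.7 CPM in low RFI libraries. High RFI libraries held 25.8, 35.5, 36.2, 34.1 and 43.4 CPM of CPT1A, again overlapping, with a log2 fold of 0.25 (SE 0.15) (edgeR, adjusted p = 0.964). Oligodendrocyte markers summed to 25567 to 51813 CPM in low and 41249.8 to 66112 CPM in high RFI libraries, with 9 of 9 tested markers at a log2 fold below 0 and 0 of them called. Fibroblast and meninges markers had a log2 fold above 0 for 9 of 9, with sums of 618 to 1210.3 CPM in low and 501 to 1293 CPM in high RFI libraries and 0 called. The part of both lists in the values above was not tested.

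**Figure D2:**
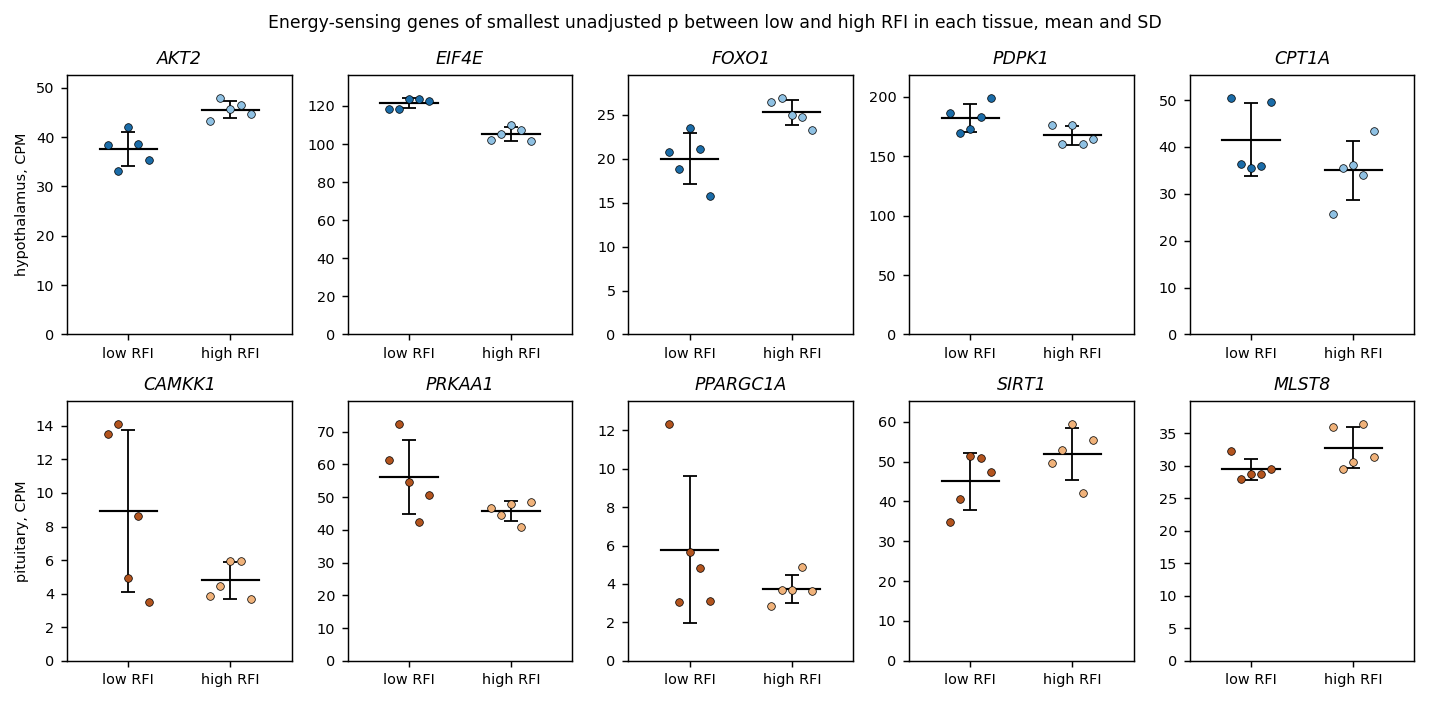
Level in each library (points, CPM on a linear axis from 0) of the 5 energy-sensing genes of smallest unadjusted p in each organ, with the mean (bar) and SD (whiskers) of 5 libraries per group. In the hypothalamus AKT2 and EIF4E are the genes whose groups do not overlap, and in the pituitary all 5 genes overlap; no gene shown passed the adjusted threshold.

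The other members of the list did not pass in the hypothalamus either, and are given by role. The insulin receptor INSR had a log2 fold of -0.03 with a 95% interval of -0.48 to 0.42, IRS1 of -0.25 and IRS4 of -0.14. The PI3K subunits PIK3CA, PIK3CB, PIK3CD and PIK3R1 lay between -0.01 and 0.10. For the mTOR kinase itself the log2 fold was 0.03 (-0.29 to 0.35), and the partners that define its complexes, RPTOR and RICTOR, were at -0.10 and 0.21. The 6 AMPK subunits tested ran from -0.17 for PRKAB1 to 0.40 for PRKAA2, the latter with an interval of -0.17 to 0.97 at 2.44 to 7.25 CPM over all 10 libraries. STK11, the main upstream kinase of AMPK, was at -0.02 with an interval of -0.20 to 0.17.

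In the pituitary, too, none of the energy-sensing genes was called between low and high RFI. Of 38 tested 0 passed in edgeR, against 0% of 15786 genes, and DESeq2 and limma-voom called 0 of 38 and 0 of all genes. At an unadjusted p under 0.05 there was 1 of 38, CAMKK1, against 1.88% of all genes by edgeR (296 genes; 379 by DESeq2 and 225 by limma-voom). The log2 fold was above 0 for 26 members and below 0 for 12, with a median of 0.04 beside 0.02 for all genes, and 0 members had groups that lay apart, against 0.253% of all genes (0.0887% with low RFI above). The 95% interval lay within 1.5-fold either way for 29 of 38 members and for 44.3% of all genes.

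CAMKK1, a calcium-dependent kinase of the family that activates AMPK, had the largest fold of the list (chromosome 19, 3475171 to 3556769, plus strand). The low RFI libraries held 13.5, 14.1, 4.96, 8.63 and 3.52 CPM. The high RFI libraries held 3.89, 4.45, 5.94, 5.95 and 3.71 CPM. Low RFI libraries 1, 2 and 4 were above all high RFI libraries and low RFI library 5 was below them all, so the groups overlapped. The log2 fold was 0.91 (SE 0.39), unadjusted p = 0.0409 (edgeR, adjusted p = 0.999), and it ran from 0.68 without low RFI library 2 to 1.14 without low RFI library 5. Without the pituitary libraries that stood apart it was 0.82, with low RFI library 2 still in the fit. Neuron markers were also high in low RFI libraries 1 and 2, at 4504 and 2655 CPM against 531 to 749.8 CPM in low RFI libraries 3 to 5 and 535 to 2389 CPM in high RFI libraries. Of these markers 10 of 11 had a pituitary log2 fold above 0, with 0 called. CAMKK1 itself was 17.7 ± 5.17 CPM in the hypothalamus, above the pituitary, and the part of the neuron markers in its pituitary fold was not tested.

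PRKAA1, the main catalytic subunit of AMPK in both organs, held 61.2, 72.2, 54.6, 42.3 and 50.7 CPM in low and 46.7, 44.6, 47.8, 40.8 and 48.6 CPM in high RFI libraries of the pituitary. Low RFI libraries 1, 2, 3 and 5 were above all high RFI libraries, and library 4 was below 4 of them. The log2 fold of 0.31 (SE 0.14) had an unadjusted p of 0.0518 (edgeR, adjusted p = 0.999) and was 0.20 without low RFI library 2. PPARGC1A, a coactivator of mitochondrial genes, held 12.3, 3.04, 5.66, 4.82 and 3.10 CPM in low RFI libraries. High RFI libraries held 2.85, 3.68, 3.70, 4.89 and 3.63 CPM of PPARGC1A. Low RFI library 1, which stood apart, gave most of that difference: the log2 fold was 0.63 (SE 0.39) with it and 0.15 without it (edgeR, adjusted p = 0.999 with it).

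SIRT1, a deacetylase that depends on NAD and acts alongside AMPK, held 34.9, 40.7, 51.3, 50.9 and 47.3 CPM in low RFI libraries. In high RFI libraries SIRT1 held 49.6, 52.9, 59.3, 42.0 and 55.3 CPM, overlapping groups with a log2 fold of -0.20 (SE 0.12) that was -0.12 without low RFI library 1 (edgeR, adjusted p = 0.999). MLST8, a subunit of both mTOR complexes, held 32.2, 28.01, 28.8, 28.7 and 29.5 CPM in low RFI libraries. Its level in high RFI libraries was 36.0, 29.5, 30.6, 36.4 and 31.3 CPM, with a log2 fold of -0.15 (SE 0.10) (edgeR, adjusted p = 0.999) that was -0.10 without high RFI library 4. Among the receptor and its substrates, INSR, IRS1 and IRS4 had pituitary log2 folds of 0.02, 0.04 and 0.07. MTOR was at 0.08 with a 95% interval of -0.25 to 0.40. DDIT4 was at 0.33, with a wide interval of -0.27 to 0.94.

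**Figure D3:**
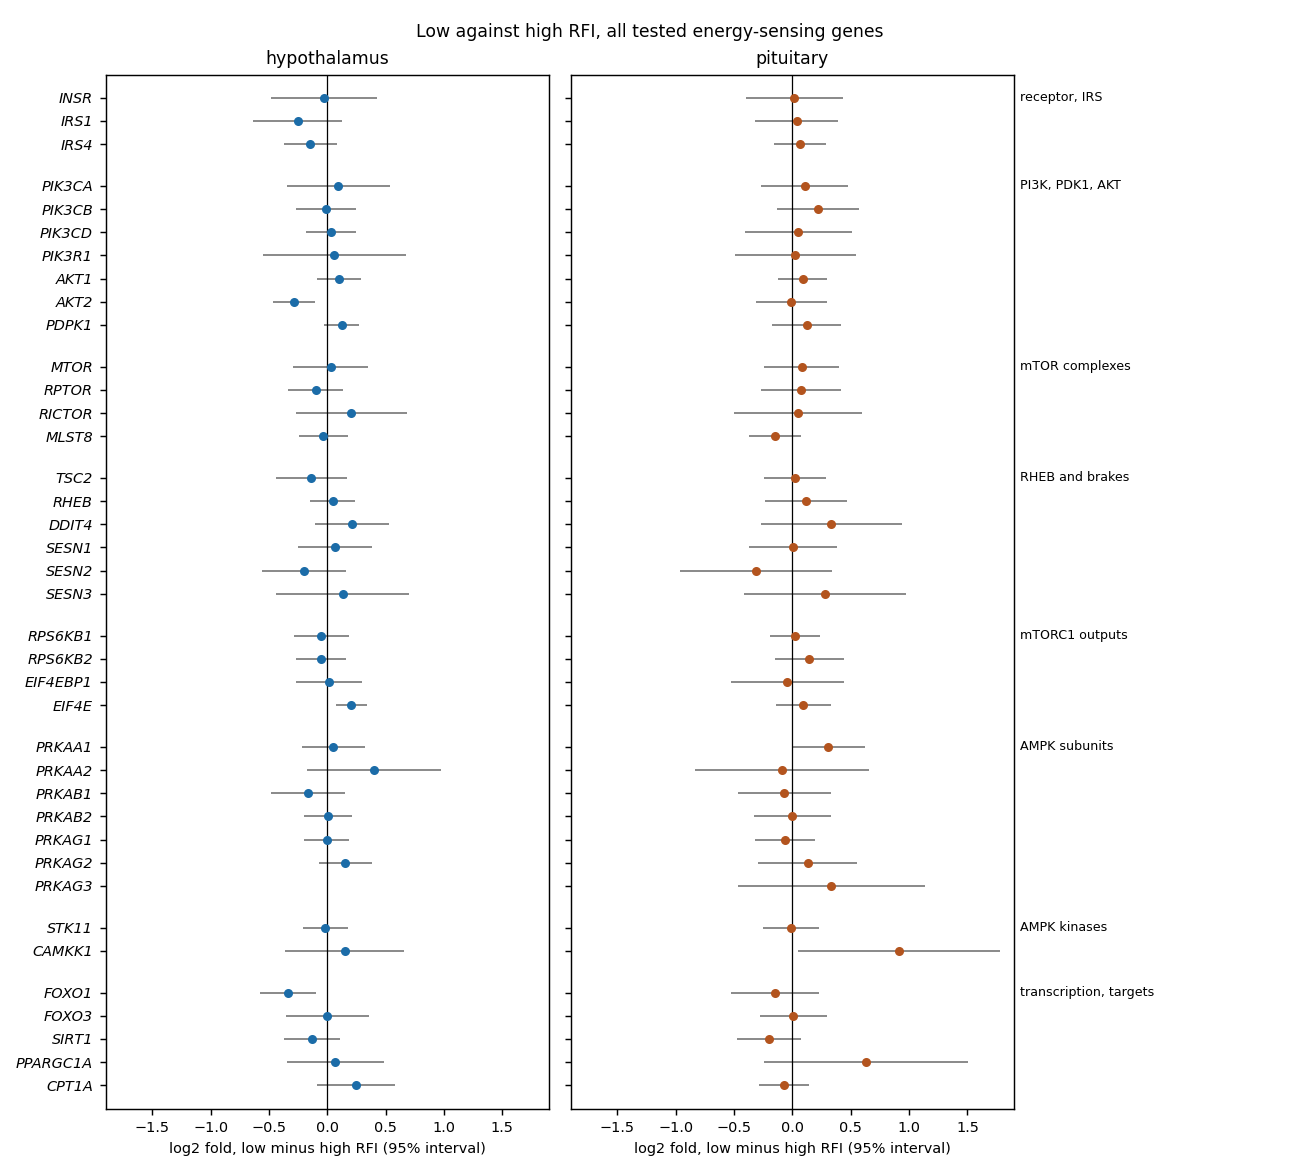
Log2 fold, low minus high RFI (horizontal axis), with its 95% interval for every energy-sensing gene tested in the hypothalamus (37 genes, left) and pituitary (38 genes, right), ordered by role, 5 libraries per group. Most intervals cross 0; those of AKT2, EIF4E and FOXO1 in the hypothalamus and of CAMKK1 in the pituitary do not, before adjustment for the number of genes tested.

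No member was called for a difference of its RFI fold between the organs. In a fit of all 20 libraries, 0 of 38 members and 0% of 16747 genes were called for the difference in log2 fold (pituitary less hypothalamus) by edgeR, with 0 members and 392 genes (2.34%; 1.09% above 0 and 1.25% below) at an unadjusted p under 0.05. DESeq2 called 2 genes, with 443 at an unadjusted p under 0.05, and limma-voom 0, with 254, and no member was among those called. The members of smallest p were CPT1A with a difference of -0.33 (SE 0.19), CAMKK1 with 0.75 (SE 0.46) and AKT2 with 0.27 (SE 0.17) (edgeR, adjusted p = 0.9999 for each). This difference was the least precise of the comparisons, and its 95% interval lay within 1.5-fold for 19 of 38 members. AKT2, which lay apart in the hypothalamus, held 42.7, 53.4, 62.3, 68.1 and 67.7 CPM in low RFI pituitaries. High RFI pituitaries held 63.9, 65.9, 54.4, 48.3 and 64.1 CPM of AKT2, so the groups overlapped there, with a log2 fold of -0.01 (SE 0.14).

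Between the organs most of the same genes differed, in both directions and mostly by less than 2-fold. With low and high RFI libraries balanced in the fit, 28 of 38 members were called between pituitary and hypothalamus, 15 higher and 13 lower in the pituitary. Among the 15, PRKAG3 passed the low-count filter only through the pituitary, where it is high, so its call is no evidence of a difference, and it is counted here and below only for completeness. That share, 73.7%, is near the background, since 70.8% of 16747 genes were called, 38.3% higher and 32.5% lower. At an unadjusted p under 0.05 the members were the same in number, 15 higher and 13 lower, against 39.4% and 33.6% of genes. At least 2-fold differences were found for 4 members upward (PIK3R1, INSR, DDIT4 and the filter-dependent PRKAG3) and 2 downward (CAMKK1 and PPARGC1A), against 16.8% and 14.6% of all genes. For 5 members (PIK3R1, INSR, FOXO1, CPT1A and the filter-dependent PRKAG3) all 10 pituitary libraries lay above all 10 hypothalamus libraries, and for 0 below, against 10.9% and 8.04% of genes. The median log2 fold was 0.12 for members and 0.07 for all genes. In bulk tissue, fewer cells of a type and less RNA of a gene per cell cannot be told apart.

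Most of the lower calls depended on how libraries are scaled. The 15 higher calls were kept, but total-count scaling raised the fold of every member, so it was no test of them. Median-ratio scaling lowered the median log2 fold of all genes only to 0.04, and kept all 28 calls, with 11820 of 16747 genes called. With libraries scaled by total counts alone, without the TMM factors used here, the median log2 fold of all genes moved from 0.07 to 0.37, and the share of calls that were higher in the pituitary from 54.1% to 70.1%. All 15 higher members were then still called higher, whereas of the 13 lower members only CAMKK1 and PPARGC1A were still called lower. In all, 23 members were then called, 21 higher and 2 lower, beside 12549 of 16747 genes. IRS4, TSC2 and EIF4E turned positive, at 0.06, 0.03 and 0.13, and EIF4E was then called higher. The lower values of the other 11 members below are therefore lower relative to the average gene. Without the 3 libraries that stood apart, all 28 calls were kept and 30 members were called, beside 12509 of 16839 genes.

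**Figure D4:**
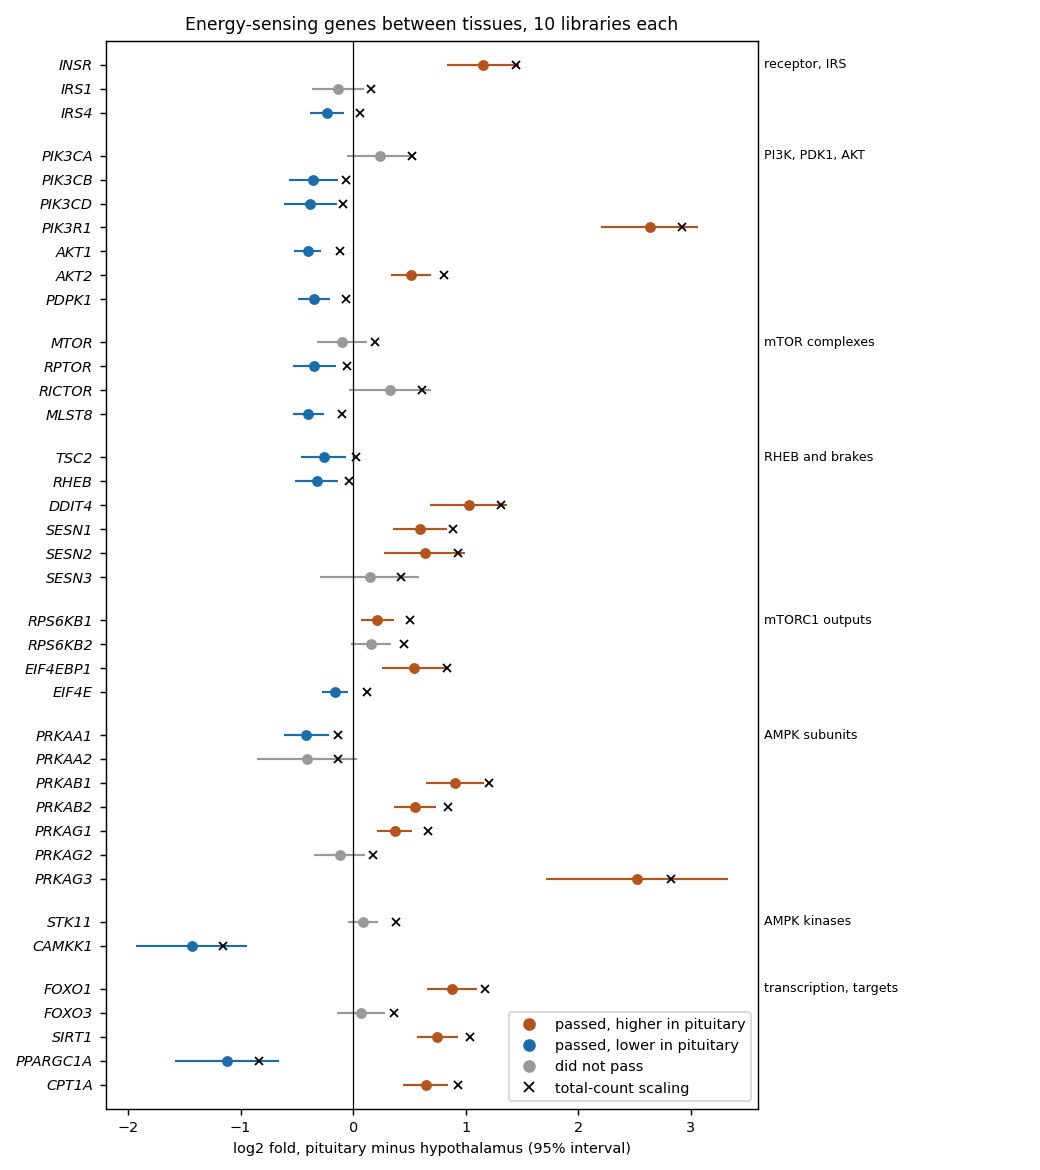
Log2 fold, pituitary minus hypothalamus (horizontal axis), with its 95% interval for the 38 energy-sensing genes, ordered by role, 10 libraries per organ. Points are coloured by whether the gene passed the test (15 higher, 13 lower, 10 not passed), and crosses give the fold with total-count scaling, which lies to the right for every gene and carries 6 genes past 0: IRS4, TSC2 and EIF4E, which had been called lower, and IRS1, MTOR and PRKAG2, which had not passed. PRKAG3 is drawn but passed the low-count filter only through the pituitary.

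At the top of the insulin pathway, the pituitary held more message of the receptor and much more of PIK3R1, a regulatory subunit of PI3K. INSR (chromosome 28, 4218437 to 4253117, minus strand) ran from 25.2 to 50.8 CPM with a median of 40.8 in the hypothalamus. In the pituitary INSR ran from 59.1 to 112 CPM with a median of 84.3, above the whole hypothalamus range. Its log2 fold was 1.15 (SE 0.15), a 2.23-fold higher level (edgeR, adjusted p = 2.83e-06). PIK3R1, a subunit that docks PI3K on phosphorylated receptors and substrates, had the largest fold of the list (chromosome Z, 21600456 to 21657260, plus strand). The hypothalamus libraries ran from 9.91 to 29.0 CPM with a median of 16.6. The pituitary libraries ran from 76.2 to 182 CPM with a median of 110.3, so the lowest of them was above the highest hypothalamus library. This was a 6.20-fold higher level (log2 fold 2.63 (SE 0.21); edgeR, adjusted p = 7.74e-09), and on the FPKM scale PIK3R1 went from place 31 of 38 in the hypothalamus to place 7 in the pituitary.

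The catalytic PI3K subunits went the other way or did not pass, relative to the average gene. PIK3CD, a catalytic subunit best known from immune cells, ran from 32.6 to 44.0 CPM with a median of 37.8 in the hypothalamus. Pituitary libraries ran from 21.4 to 42.8 CPM with a median of 27.6 for PIK3CD, and low RFI library 1 at 42.8 CPM and high RFI library 4 at 36.9 CPM lay within the hypothalamus range (log2 fold -0.38 (SE 0.11); edgeR, adjusted p = 0.00539). PIK3CB was lower too, at 81.0 ± 10.3 CPM and 63.5 ± 11.3 CPM (SD, n = 10), with a log2 fold of -0.35, and PIK3CA did not pass, at 0.24. AKT1 (chromosome 5, 51789219 to 51852080, minus strand) ran from 41.0 to 54.0 CPM with a median of 49.1 in the hypothalamus. In the pituitary AKT1 ran from 32.6 to 42.6 CPM with a median of 35.8, where low RFI library 1 at 42.6 CPM was the library that reached the hypothalamus range (log2 fold -0.40 (SE 0.06); edgeR, adjusted p = 6.81e-06). AKT2 was higher in the pituitary, at 59.1 ± 8.82 CPM against 41.6 ± 4.97 CPM (SD, n = 10), with a log2 fold of 0.51 (SE 0.08). PDPK1 and IRS4 were lower, at log2 folds of -0.35 and -0.23, though IRS4 turned positive with total-count scaling, and IRS1 did not pass at -0.14.

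Of the mTOR complexes, the kinase itself did not pass while shared and mTORC1 subunits were lower relative to the average gene. MTOR stood at 76.7 ± 13.2 CPM in the hypothalamus and 71.6 ± 10.9 CPM in the pituitary (SD, n = 10), with a log2 fold of -0.10 and a 95% interval of -0.32 to 0.13. RICTOR, which defines mTORC2, was at 0.32 and did not pass. MLST8 ran from 33.9 to 46.2 CPM with a median of 41.2 in the hypothalamus. In the pituitary MLST8 ran from 28.01 to 36.4 CPM with a median of 30.1, overlapping ranges with a log2 fold of -0.40 (SE 0.07) (edgeR, adjusted p = 3.29e-05). RPTOR, which brings substrates to mTORC1, had a log2 fold of -0.34 (SE 0.09).

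The inhibitors that act on mTORC1 under stress were higher in the pituitary, except SESN3 and the TSC subunit measured. DDIT4 (chromosome 6, 12170562 to 12174718, minus strand) ran from 29.9 to 52.1 CPM with a median of 40.5 in the hypothalamus. In the pituitary DDIT4 ran from 43.8 to 139.7 CPM with a median of 78.0, with low RFI library 1, at 43.8 CPM, the library inside the hypothalamus range. The log2 fold was 1.03 (SE 0.16), a 2.04-fold higher level (edgeR, adjusted p = 2.16e-05). Immediate early genes, which rise with stimulation or handling of tissue (15 of 19 listed found), summed to 252 to 341 CPM in the hypothalamus and 1165 to 3357 CPM in the pituitary, and their part in the DDIT4 difference was not tested. SESN1 stood at 55.7 ± 9.12 CPM and 84.1 ± 15.1 CPM (SD, n = 10), with a log2 fold of 0.60 (SE 0.12), SESN2 had a log2 fold of 0.64 (SE 0.17), and SESN3 did not pass at 0.14. TSC2, which restrains RHEB, and RHEB itself had log2 folds of -0.26 and -0.33, of which TSC2 turned positive with total-count scaling. Downstream, EIF4EBP1 was higher at 82.2 ± 19.9 CPM against 56.5 ± 8.13 CPM (log2 fold 0.54 (SE 0.13)) and the S6 kinase gene RPS6KB1 at a log2 fold of 0.22 (SE 0.07), while EIF4E was at -0.16 (SE 0.05), or 0.13 with total-count scaling, and RPS6KB2 did not pass at 0.16.

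**Figure D5:**
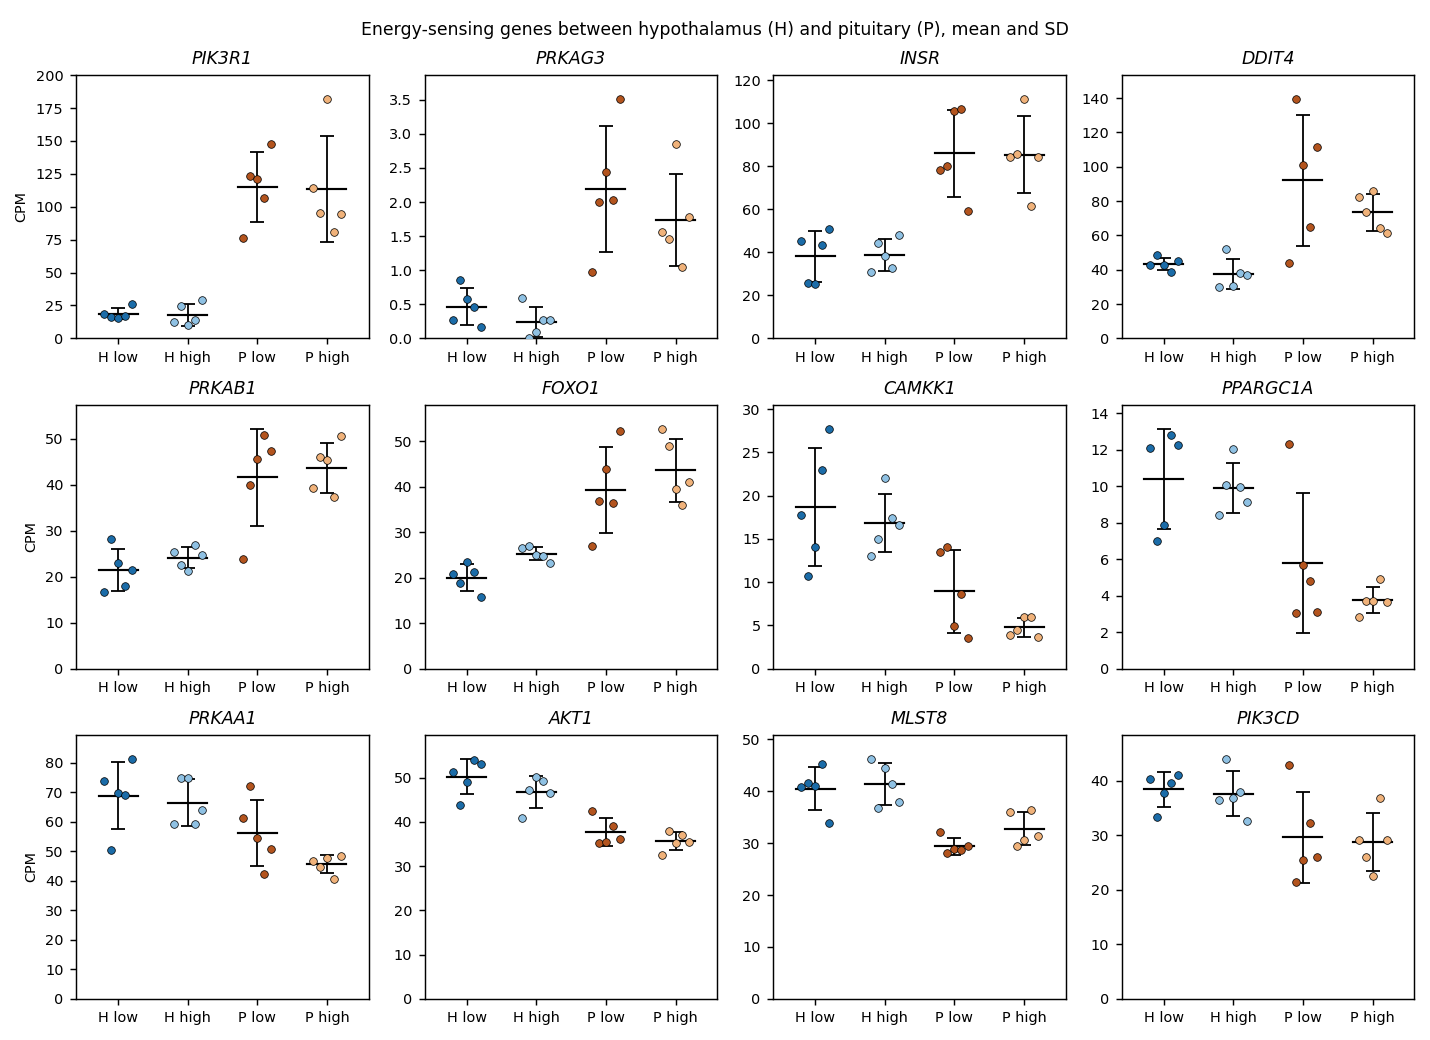
Level in each library (points, CPM on a linear axis from 0) of the 6 energy-sensing genes of largest fold in each direction among those called between organs, with the mean (bar) and SD (whiskers) of 5 libraries in each group of hypothalamus (H) and pituitary (P). PIK3R1, INSR and FOXO1 show no overlap between organs, nor does the scarce PRKAG3, which passed the low-count filter only through the pituitary. Low RFI library 1 of the pituitary, the leftmost point of P low, lies nearest the hypothalamus for most genes shown.

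Of the AMPK subunits, 4 were called higher and 1, PRKAA1, lower in the pituitary, the latter no longer called with total-count scaling at -0.13. That is 5 of 7, near the 70.8% of all genes called, and PRKAG3, kept only through its pituitary counts, is among the 4. PRKAB1, a beta subunit, ran from 16.8 to 28.2 CPM with a median of 22.7 in the hypothalamus (chromosome 15, 9925493 to 9931131, minus strand). In the pituitary PRKAB1 ran from 24.0 to 50.9 CPM with a median of 45.6, with low RFI library 1 the lowest and the library within the hypothalamus range. Its level was 1.87-fold higher (log2 fold 0.90 (SE 0.12); edgeR, adjusted p = 3.47e-06). The other beta subunit, PRKAB2, and the gamma subunit PRKAG1 were higher as well, with log2 folds of 0.55 (SE 0.09) and 0.37 (SE 0.07). PRKAA1 (chromosome Z, 12893076 to 12913153, minus strand) ran from 50.5 to 81.4 CPM with a median of 69.4 in the hypothalamus. In the pituitary PRKAA1 ran from 40.8 to 72.2 CPM with a median of 48.2, overlapping ranges with a log2 fold of -0.42 (SE 0.10) (edgeR, adjusted p = 0.000730). PRKAA2 and PRKAG2 did not pass, at -0.41 and -0.12.

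PRKAG3, the gamma subunit that mammals express mainly in skeletal muscle, was scarce in both organs (chromosome 7, 22421786 to 22425915, minus strand). Hypothalamus libraries held 0 to 9 counts, and pituitary libraries 12 to 42 counts. The pituitary low RFI libraries held 0.971, 2.00, 2.44, 2.03 and 3.52 CPM. The pituitary high RFI libraries held 1.56, 1.46, 2.85, 1.05 and 1.78 CPM, and all 10 were above the highest hypothalamus library at 0.852 CPM. Since the gene was kept only through its pituitary counts, these levels are a description, and its fold and test are not read as a difference. Skeletal muscle markers (7 of 9 listed found) summed to 16.3, 1691, 711, 873 and 1797 CPM in low RFI pituitary libraries. In high RFI pituitary libraries they summed to 94.1, 2940.3, 1492, 63.7 and 546 CPM, against 10.6 to 21.1 CPM in the hypothalamus. Only 3 of the 7 passed the low-count filter in the hypothalamus, so these sums too are a description. The part of muscle RNA in the PRKAG3 levels was not tested.

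The kinase CAMKK1 was the member with the largest lower fold in the pituitary. Hypothalamus libraries ran from 10.7 to 27.7 CPM with a median of 17.0. Pituitary libraries ran from 3.52 to 14.1 CPM with a median of 5.45, with low RFI libraries 1 and 2 inside the hypothalamus range. The level was 2.70-fold lower in the pituitary (log2 fold -1.43 (SE 0.24); edgeR, adjusted p = 2.90e-05). STK11 had a log2 fold of 0.09 with a 95% interval of -0.05 to 0.22 and did not pass. The whole genomic span of CAMKK1, 81599 bases with introns, overlaps the annotated span of IFT22, an intraflagellar transport gene on the opposite strand. How reads in shared stretches were assigned is not stated, so the CAMKK1 count is uncertain to that extent. IFT22 differed in the other direction between organs, with a log2 fold of 0.33, and had a pituitary RFI log2 fold of -0.04.

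Among the transcription factors and metabolic effectors, FOXO1, SIRT1 and CPT1A were higher and PPARGC1A lower in the pituitary. FOXO1 ran from 15.8 to 26.9 CPM with a median of 23.4 in the hypothalamus. In the pituitary FOXO1 ran from 26.9 to 52.8 CPM with a median of 40.3, with the lowest at 26.95 CPM and the highest hypothalamus library at 26.92 CPM, a 1.84-fold higher level (log2 fold 0.88 (SE 0.11); edgeR, adjusted p = 1.08e-06). FOXO3 did not pass, at 0.07, and the FOXO1 share of their summed FPKM was 39.5% ± 6.86 in hypothalamus libraries and 52.6% ± 6.89 in pituitary libraries. SIRT1 stood at 28.8 ± 3.30 CPM and 48.4 ± 7.37 CPM (SD, n = 10), with a log2 fold of 0.75 (SE 0.09), and CPT1A at 38.3 ± 7.51 CPM and 59.7 ± 5.80 CPM, with a log2 fold of 0.65 (SE 0.09). PPARGC1A (chromosome 4, 73938490 to 74100704, plus strand) ran from 7.004 to 12.8 CPM with a median of 10.0 in the hypothalamus. In the pituitary PPARGC1A ran from 2.85 to 12.3 CPM with a median of 3.69, where low RFI library 1 held 12.3 CPM and the other 9 held 2.85 to 5.66 CPM, below all hypothalamus libraries. The level was 2.18-fold lower (log2 fold -1.12 (SE 0.22); edgeR, adjusted p = 0.000185).

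A single library repeatedly lay between the organs. Low RFI library 1 of the pituitary was the pituitary library nearest the hypothalamus for 19 of the 28 called members, beside 54.5% of the 11862 genes called. Low RFI library 2 was nearest for 5 of the 28, beside 16.0% of genes. Without the 3 libraries that stood apart, the log2 fold of CAMKK1 was -1.65, that of PPARGC1A -1.47, that of PRKAB1 1.06 and that of PIK3R1 2.72, and RPS6KB2 and PRKAA2 were called as well, at 0.20 and -0.54.

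Other genes of the same pathways came from lists chosen with earlier results of these data known, so their counts are a description only. For RFI, 0 of 28 further insulin pathway genes, 0 of 47 mTOR pathway genes and 0 of 37 AMPK pathway genes were called in either organ. Of all genes 0% were called for RFI in each organ. Between organs, 8 insulin pathway genes were higher and 14 lower in the pituitary (78.6% of 28), 15 mTOR pathway genes were higher and 19 lower (72.3% of 47), and 17 AMPK pathway genes were higher and 14 lower (83.8% of 37), beside 70.8% of all genes. SHC1, an adaptor of receptor kinases, was higher with a log2 fold of 1.01 (SE 0.11), and SGK3, a kinase related to AKT, was lower at -1.63 (SE 0.20). In the mTOR list EIF4EBP2 was higher at 0.89 (SE 0.12), while PRR5, a subunit of mTORC2, was lower at -1.09 (SE 0.10). TXNIP, an inhibitor of glucose uptake that AMPK marks for degradation, was the largest of these at 3.23 (SE 0.22), from 26.4 ± 8.45 to 250.2 ± 79.4 CPM (SD, n = 10), and CAB39, a scaffold of STK11, was lower at -1.52 (SE 0.17).

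Gene models overlap for part of the list, and the counts of those genes are uncertain because no source used here says whether strand was used in counting. Of the 38 members, 11 overlap another gene row of the table in genomic span, introns included, and 8 of these with a gene on the opposite strand. PRKAA1 shares 4802 bases of span with the complement gene C7 on the opposite strand, which was higher in the pituitary with a log2 fold of 5.05, against -0.42 for PRKAA1. DDIT4 shares 967 bases of span with ANAPC16 on its own strand, which had a log2 fold of -0.22 between organs.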

How the data were processed

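Total RNA (1 µg per library, RNA integrity number at least 7.7, per the labels) was sequenced in 20 libraries of pooled birds. Reads were aligned with HISAT2 2.0.5 to GRCg6a, per the submitters' processing notes; DESeq2 1.20.0 is listed there too. How reads were counted, and whether by strand, is not given in the sources used here. The authors deposited raw read counts per gene. The authors' deposited FPKM values equal the count divided by gene length and a scaled library size, and served only to compare genes. Depth was 10262777 to 12647034 counts per library. In R 4.3.3, edgeR 4.0.16 (quasi-likelihood test with robust dispersions, TMM factors, low counts removed by filterByExpr) was run on each organ alone for RFI and all 20 libraries for the organ contrast and the difference of RFI folds, with Benjamini-Hochberg adjustment over all genes tested (threshold 0.05). CPM use TMM-scaled totals of all 20 libraries. Alternatives were other scalings, filters (none, or 1 CPM in 5 libraries), DESeq2 1.42.0, limma-voom (limma 3.58.1), a replicate block, left-out libraries and 1 fit of all libraries. Libraries of a group were compared pairwise, and all 40 pairs differed beyond counting noise (chi-square divided by its degrees of freedom between 7.86 and 195). The steps were tested on simulated counts. The members, gene lists and tests were chosen with earlier results of these data known. Values in every library are given for called members or the 5 of smallest p per RFI comparison, the 3 of smallest p for the difference, and the 6 of largest fold per direction between organs. For the other pathway genes the 2 of smallest p per list and direction could be named; some of these are.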

Additional observations from a re-analysis of the deposited data

Results flagged for a closer look

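In 5 of 152 sets of 5 libraries (38 genes in 4 groups, 3.29%), a library lay far from the other 4 by Dixon's test at the 95% level; chance flags about 1 in 20 such sets. PPARGC1A, the mitochondrial coactivator, held 12.3 CPM in low RFI library 1 of the pituitary, against 3.04 to 5.66 CPM in the other low RFI libraries. PIK3R1, a regulatory PI3K subunit, held 26.4 CPM in low RFI library 5 of the hypothalamus, against 15.8 to 18.5 CPM. The catalytic subunit PIK3CB was low in high RFI library 4 of the hypothalamus, at 58.9 CPM against 84.9 to 88.6 CPM. Another catalytic subunit, PIK3CA, held 34.9 CPM in high RFI library 3 of the pituitary, against 26.9 to 28.1 CPM. IRS4, of higher level than IRS1, the other insulin receptor substrate found, held 61.3 CPM in low RFI library 4 of the pituitary, against 52.0 to 54.6 CPM. Each of these libraries was kept.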

How the results depend on the processing

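The members called for RFI were 0 in both organs, and 0 for the difference of folds, under every alternative run, leaving out each library included. Over all genes DESeq2 called 5 in the hypothalamus and 2 for the difference, against 0 by edgeR, limma-voom and the other settings. Between organs 28 members were called under median-ratio scaling (beside 11820 of 16747 genes), DESeq2 (11875 of 16508) and limma-voom (11869 of 16747). Both other filters gave 28 too, beside 13135 of 25373 genes with no filter and 11701 of 16381 with 1 CPM in 5 libraries. Leaving out single libraries gave 28 to 30 (15 to 16 higher, 13 to 14 lower), beside 11576 to 12341 genes. Leaving out the 3 libraries that stood apart gave 30, beside 12509 of 16839 genes. Total-count scaling called 23, of them 2 lower against 13 in the main fit. Over all genes total-count scaling called 12549 of 16747, of which 70.1% were higher, against 11862 and 54.1% in the main fit. It reversed the sign of IRS1 (0.15), IRS4 (0.060), MTOR (0.19), TSC2 (0.026), EIF4E (0.13) and PRKAG2 (0.17), and 8 further lower members were no longer called (-0.13 for PRKAA1 to -0.04 for RHEB). SESN3 reversed to -0.11 without the libraries that stood apart. Whether replicate numbers pair the samples is not known, and the main fits did not pair them. Each gene's group mean was subtracted from its log2 CPM, so correlations between libraries were of deviations from the group, not of levels. For same-numbered libraries these correlations ran from -0.16 to 0.21 between RFI groups of the hypothalamus and from -0.12 to 0.39 in the pituitary. Between organs they ran from -0.38 to 0.30 in low RFI and from -0.06 to 0.05 in high RFI. Correlations of differently numbered libraries were not computed. With the replicate number as a block, 0 members and 0 genes were called for RFI and for the difference, and 28 members (15 higher, 13 lower) and 11708 genes between organs. Depth limits PRKAG3 and PRKAA2, with 0 to 42 and 23 to 84 counts per library. Small folds were less precise in the pituitary, where the median SE over genes was 0.23 against 0.16 in the hypothalamus. Library totals were similar, at 10262777 to 11960994 counts in the pituitary and 11418600 to 12647034 in the hypothalamus. The source of the larger SE was not tested.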
